A study of Mus musculus with 3 samples.

Results

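The nuclear receptor genes measured in PTH-treated osteocytic cells were taken as a fixed list of 41 gene symbols, all of which were found among the 25410 symbols of the count files. Where a symbol had several transcript rows, its rows were summed. The study asked which transcripts parathyroid hormone (PTH) regulates in osteocytes, the cells embedded in bone matrix, and it used IDG-SW3, a mouse line that becomes osteocyte-like in culture. All 3 libraries belonged to 1 group: IDG-SW3 cells at day 35 of differentiation, given PTH at 100 nM for 24 h. The cells had been expanded at a permissive temperature with interferon-gamma, which keeps the T antigen of this conditionally immortalised line active, and had then been moved to body temperature in medium with ascorbic acid and beta-glycerol phosphate. The design text calls the replicates biological. The p-values below rest on the spread between these 3 libraries, pooled over many genes or, for receptor pairs, over the pairs tested. Vehicle-treated libraries were not analysed here, so no value below is an effect of PTH. Each receptor was set against a fixed level, against the other genes of the same libraries, or against a related receptor.

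Nuclear receptors are transcription factors that bind DNA and, in most cases, a small fat-soluble ligand such as a steroid, a retinoid, thyroid hormone, vitamin D or a lipid. Steroid receptors wait on chaperones and act mainly as homodimers, whereas the receptors for retinoids, thyroid hormone, vitamin D and lipids bind DNA as heterodimers with a retinoid X receptor (RXR) and recruit corepressors or coactivators. In bone, glucocorticoids, vitamin D, oestrogen and thyroid hormone all act on osteoblasts and osteocytes through such receptors. The PTH receptor raises cyclic AMP, and the Nr4a genes are textbook early targets of that pathway through the cyclic AMP response element, the DNA site bound by the factor CREB.

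The Nr4a promoters are shown because they alone among the 38 receptor genes with a promoter sequence held 4 half-sites of that element. The promoters of Vdr, the vitamin D receptor gene, and Rxra, its RXR partner, are shown beside them as examples that held none. Holding none was the usual case, as only 13 of the 38 genes held at least 1. Each sequence is the stretch of 250 bases before a RefSeq transcript start in build GRCm38.p6, written 5′ to 3′ on the gene's own strand, with each half-site (TGACG or its complement CGTCA) in capitals. They lie at chr15:101266596-101266845 on the plus strand for Nr4a1, chr2:57124004-57124253 on the minus strand for Nr4a2 and chr4:48045055-48045304 on the plus strand for Nr4a3. The Vdr stretch is chr15:97908297-97908546 on the minus strand and the Rxra stretch is chr2:27676951-27677200 on the plus strand, the first of its RefSeq starts.
Nr4a1: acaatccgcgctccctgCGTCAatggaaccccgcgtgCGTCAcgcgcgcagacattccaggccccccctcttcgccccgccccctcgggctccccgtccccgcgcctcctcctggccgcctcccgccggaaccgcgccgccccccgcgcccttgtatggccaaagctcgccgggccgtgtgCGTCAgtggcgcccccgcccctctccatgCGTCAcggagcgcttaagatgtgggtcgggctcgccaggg
Nr4a2: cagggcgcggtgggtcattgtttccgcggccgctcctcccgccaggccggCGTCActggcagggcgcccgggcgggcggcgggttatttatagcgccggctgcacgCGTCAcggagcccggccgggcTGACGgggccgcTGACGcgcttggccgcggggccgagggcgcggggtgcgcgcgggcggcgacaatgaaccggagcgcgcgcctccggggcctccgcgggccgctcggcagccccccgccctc
Nr4a3: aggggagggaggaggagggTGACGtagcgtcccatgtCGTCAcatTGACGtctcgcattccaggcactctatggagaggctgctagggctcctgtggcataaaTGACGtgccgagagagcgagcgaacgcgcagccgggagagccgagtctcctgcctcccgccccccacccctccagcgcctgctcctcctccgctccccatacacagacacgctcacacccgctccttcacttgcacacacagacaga
Vdr: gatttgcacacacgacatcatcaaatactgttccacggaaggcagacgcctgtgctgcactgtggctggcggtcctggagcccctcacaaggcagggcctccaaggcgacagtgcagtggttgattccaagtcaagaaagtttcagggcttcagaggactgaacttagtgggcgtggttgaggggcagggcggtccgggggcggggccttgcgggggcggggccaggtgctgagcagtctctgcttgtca
Rxra: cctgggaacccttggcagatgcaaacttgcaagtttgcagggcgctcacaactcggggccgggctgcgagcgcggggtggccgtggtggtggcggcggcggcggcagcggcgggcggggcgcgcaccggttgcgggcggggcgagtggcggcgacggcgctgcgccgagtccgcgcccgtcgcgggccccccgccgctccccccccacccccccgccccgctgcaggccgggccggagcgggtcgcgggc

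Promoter sequences were matched for 38 of the 41 receptor genes, with 57 starts among them; Thra, Nr3c1 and Nr5a1 were not matched. At least 1 half-site was found in 13 of the 57 receptor promoters (22.8%), against 17.8% of all 32851 promoters of the same length. Promoters with 4 half-sites made up 3 of the 57 (5.26%), and 45 of all 32851 (0.137%) held at least 4. The full palindrome TGACGTCA, whose letters contain both half-sites overlapping, occurred in 1.55% of all promoters and, among the receptors, only before Nr2e1. A GC box (GGGCGG or its complement CCGCCC) occurred in 25 of the 57 receptor promoters (43.9%), against 32.7% of all promoters. Among matched genes, 3 of the 11 receptors called above 1 RPKM in these cells had a half-site (27.3%), as did 10 of the other 27 (37.0%). These matches describe letters in a window and are not measured binding.

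**Figure D1:**
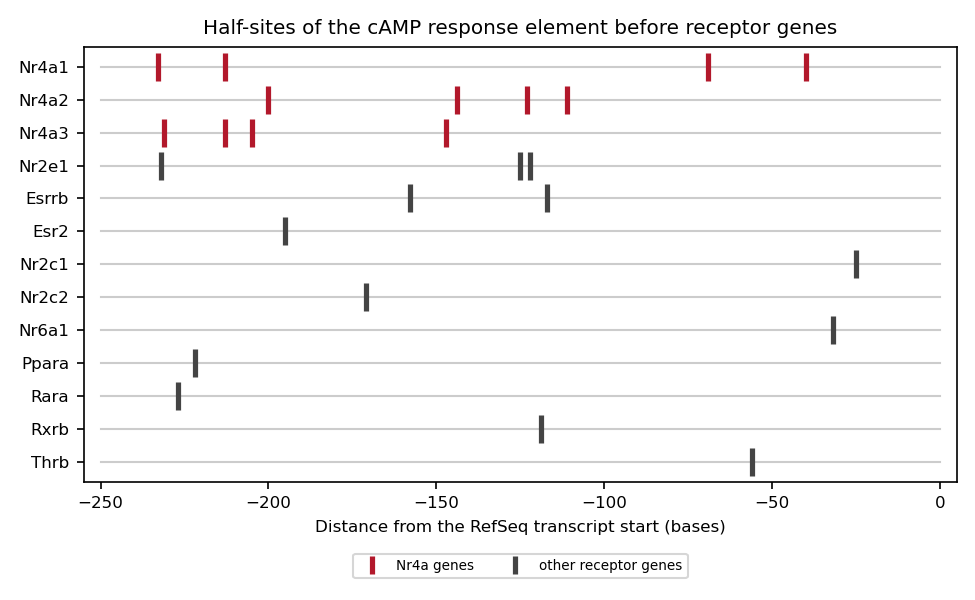
Positions of half-sites of the cyclic AMP response element (vertical ticks) in the 250 bases before the RefSeq transcript start (x axis, distance from the start in bases) for the 13 receptor genes with at least 1. Nr4a1, Nr4a2 and Nr4a3 (top, red) have 4 ticks each, and no other receptor gene has more than 3.

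Levels are given as RPKM, counts per kilobase of transcript and per 1000000 counts of a library, computed from libraries of 35195518, 37299517 and 45240005 counts (replicates 1, 2 and 3). A receptor was called above or below 1 RPKM where edgeR's quasi-likelihood test, adjusted over 20983 genes, passed 0.05, and was otherwise unresolved. Of the 41 receptors, 13 were above 1 RPKM, 6 were below, 18 were unresolved and 4 were listed at 0 in every library. The 13 made up 35.1% of the 37 receptors tested, where 43.2% of all genes tested were above 1 RPKM, and the share below stood beside 13.4% of all genes. Only 4 receptors, Nr3c1, Rxra, Nr2c2 and Thra, were above 10 RPKM (10.8% of those tested), where 20.6% of all genes were. The median receptor stood at 0.157 RPKM, and the median of all genes with a known length at 0.497 RPKM. Over symbols with 1 row the order was the other way, with medians of 1.43 RPKM for receptors and 0.694 RPKM for all genes.

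The count above 1 RPKM, like the median, depends on how the files list a gene. Of the receptors, 15 had several rows, and such symbols were often near 0 throughout the files: 25% of the tested genes with several rows were above 1 RPKM, against 45.4% of those with 1 row. Among receptors with 1 row, 12 of 26 were above 1 RPKM (46.2%), close to that background, and 1 of the 11 tested with several rows was (9.09%). Smarca4 and Bag1, genes that most cells use, have several rows too and stood at 0.0307 ± 0.0313 RPKM and at 0; they were picked after their values were seen. A low or 0 value of a receptor with several rows (Rara, Rarg, Rxrg, Thrb, Esr2, Esrrb, Ppara, Nr1h3, Nr1h4, Nr1i2, Rorb, Nr2f2, Nr4a2, Nr5a2 and Nr6a1) was therefore not read as absence. In RNA from a whole culture, fewer cells that express a receptor and less of it per cell cannot be told apart.

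**Figure D2:**
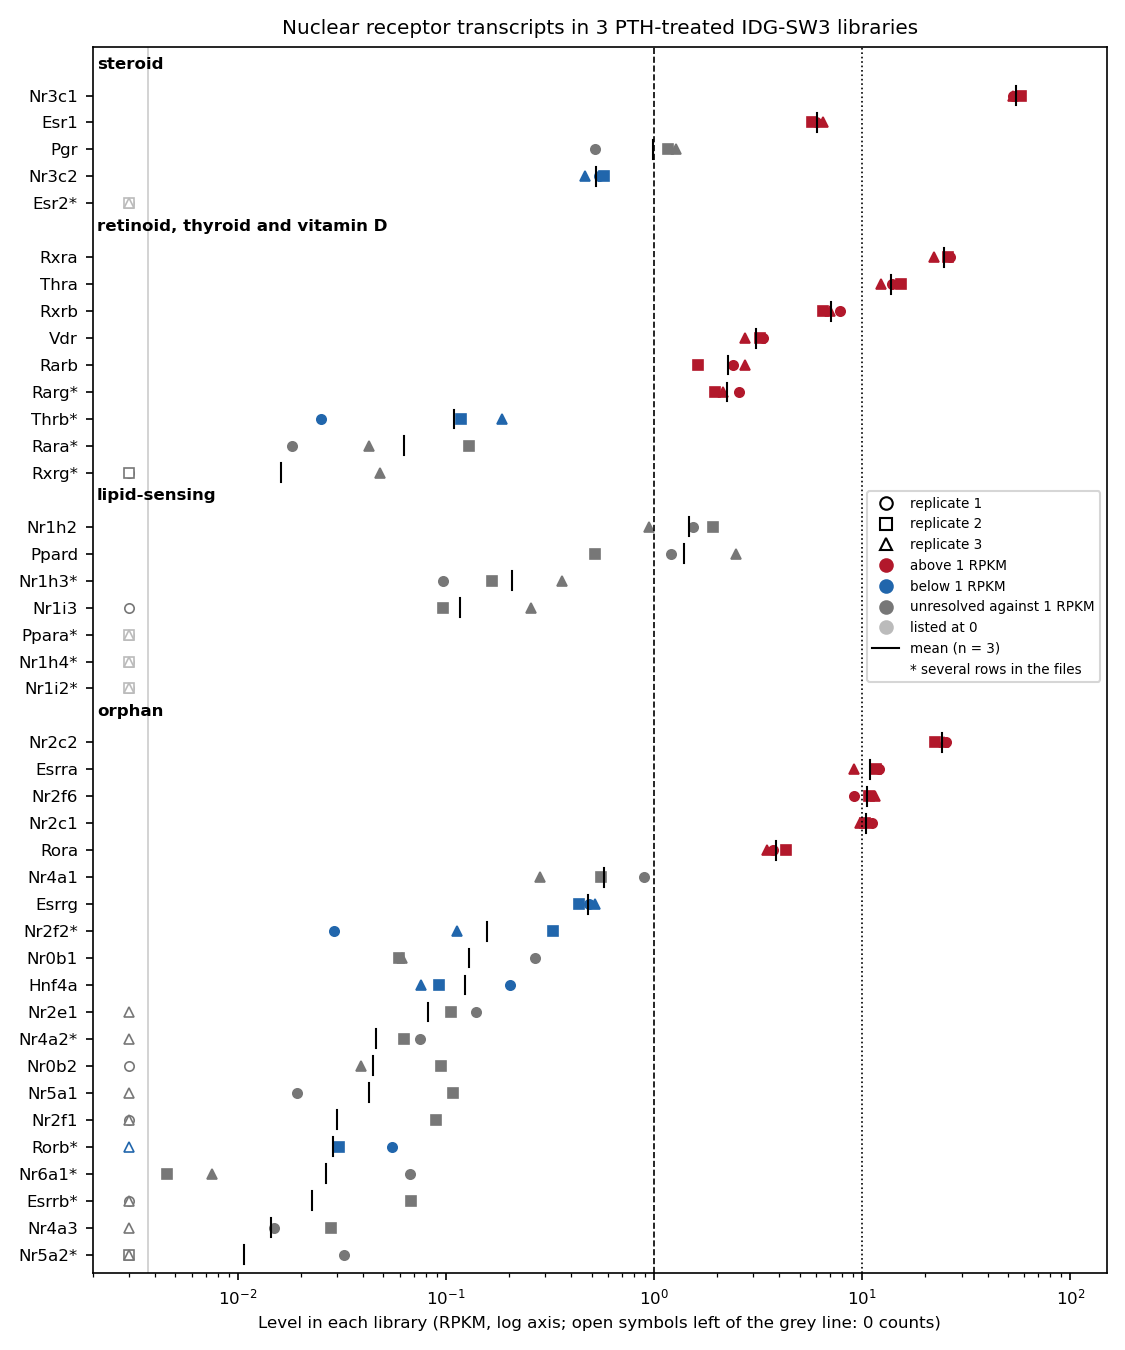
Level of each of the 41 receptor genes in each library (x axis, RPKM, log scale; 1 symbol per library; bar, mean of 3), grouped by family, with dashed and dotted lines at 1 and 10 RPKM. The steroid receptor Nr3c1 lies farthest right, the 7 lipid-sensing receptors are unresolved or at 0 by edgeR, and starred genes have several rows.

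Among steroid receptors, the glucocorticoid receptor gene Nr3c1 held the highest level of any receptor, with 53.1, 57.9 and 52.8 RPKM in replicates 1, 2 and 3 (54.6 ± 2.82, SD, n = 3). It was above 10 RPKM (edgeR adjusted p = 1.43e-96) and ranked 1356 of the 23017 genes with a length. Its lowest library lay above the highest library of every other receptor. The oestrogen receptor gene Esr1 had 5.98, 5.73 and 6.503 RPKM (6.07 ± 0.395) and was above 1 RPKM (edgeR adjusted p = 2.54e-66). The mineralocorticoid receptor gene Nr3c2, whose protein binds many of the same ligands as the glucocorticoid receptor, had 0.546, 0.571 and 0.466 RPKM and was below 1 RPKM (edgeR adjusted p = 0.0104). That call was lost without replicate 1 or 2, with the shortest transcript, with scaling to protein-coding counts and with DESeq2. The progesterone receptor gene Pgr had 0.519, 1.16 and 1.27 RPKM, so its libraries lay on both sides of 1 RPKM and it was unresolved (edgeR adjusted p = 0.940). With its longest transcript it was below 1 RPKM, at a log2 level of -1.19 (edgeR adjusted p = 4.32e-04). Esr2, the second oestrogen receptor gene, was listed at 0 in both of its rows, where 3 counts over the 3 libraries would be 0.00769 RPKM.

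Nr3c1 exceeded Nr3c2 by a log2 ratio of 6.45 ± 0.09, 103-fold between the mean levels, and in 3 of 3 libraries (limma adjusted p = 9.47e-06 over 16 pairs). The ratio of length-scaled counts over the 3 libraries was 104, with an exact 95% interval of 92.8 to 117. That interval, like all counting intervals here, covers counting error only.

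Transcripts of the proteins that serve steroid receptors were mostly above the threshold. Of 15 receptor chaperone genes, 13 were above 1 RPKM and 11 above 10 RPKM, 1 was unresolved and Bag1 was at 0. The share above 1 RPKM was 92.9% of the 14 tested, where 43.2% of all genes tested were. The highest were Hspa8, which loads client proteins, at 1810 ± 141 RPKM, the HSP90 genes Hsp90aa1 and Hsp90ab1 at 360 ± 7.13 and 349 ± 21.4 RPKM, and Ptges3, the p23 cochaperone, at 305 ± 37.5 RPKM. Of 10 genes known as glucocorticoid receptor targets, 9 were above (90%, beside the same 43.2%) and 1 below 1 RPKM. The first 4 were the metabolic kinase gene Pdk4 at 49.8 ± 3.05 RPKM, the growth factor feedback gene Errfi1 at 45.03 ± 5.52, the transcription factor gene Klf9 at 23.5 ± 1.89 and Tsc22d3, which encodes the glucocorticoid-induced leucine zipper, at 13.03 ± 0.715. These are levels, and whether the receptor sets them was not tested. Of 14 measured steroid-handling genes, 8 were above (57.1%, where 43.2% of all genes tested were), 2 below and 4 unresolved. The highest were the dehydrogenase genes Hsd17b12 (66.5 ± 2.53 RPKM), Hsd17b10 (30.3 ± 2.91), Hsd17b7 (19.6 ± 2.74) and Hsd17b11 (15.8 ± 1.78).

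Of the 9 retinoid, thyroid hormone and vitamin D receptors, 6 were above 1 RPKM, 1 below and 2 unresolved. The share above was 66.7%, where 43.2% of all genes tested were. All 5 with 1 row were above, and 1 of the 4 with several rows was. The families were not ranked, because they differ in how many members have several rows. Rxra, which encodes the alpha RXR, had 26.3, 25.7 and 22.2 RPKM (24.7 ± 2.22). Rxrb, the beta isotype, had 7.79, 6.46 and 7.01 RPKM (7.08 ± 0.666), and no library of Rxrb reached a library of Rxra. Rxrg, the gamma isotype, was at 0, 0 and 4 counts in its 2 rows and was unresolved. Rxra exceeded Rxrb by a log2 ratio of 1.79 ± 0.17, 3.49-fold between means (limma adjusted p = 4.1e-04). The size depends on transcript length: the log2 ratio was 0.93 with the longest and 2.05 with the shortest transcripts (limma adjusted p = 0.00352 and 5.02e-04). Of the summed RXR level at median lengths, Rxra made up 77.6 ± 2.07% and Rxrb 22.3 ± 1.995%.

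Thra, a thyroid hormone receptor gene, had 13.8, 15.3 and 12.3 RPKM (13.8 ± 1.498) and was above 10 RPKM (edgeR adjusted p = 6.5e-06). Thrb, its relative, had 0.0251, 0.118 and 0.185 RPKM over 2 rows and was below 1 RPKM (edgeR adjusted p = 0.0102), a call lost without replicate 2, with the shortest transcript and with DESeq2. Thra exceeded Thrb by a log2 ratio of 6.13 ± 0.68 (limma adjusted p = 5.39e-05), with the 2 rows of Thrb making the size uncertain. Of 9 thyroid hormone handling and response genes, 4 were above, 1 below, 3 unresolved and 1 at 0. The share above was 50% of the 8 tested, where 43.2% of all genes tested were. Dio2, the deiodinase that makes active thyroid hormone, had 98.4, 97.5 and 97.0 RPKM, with a spread of 0.717 around a mean of 97.6 RPKM. Dio3, the deiodinase that inactivates the hormone, stood lower, at 10.4, 8.97 and 7.27 RPKM (8.86 ± 1.55). Klf9, also a thyroid hormone target, is given above.

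Vdr had 511, 528 and 538 counts, or 3.32, 3.24 and 2.72 RPKM. It was above 1 RPKM (edgeR adjusted p = 1.93e-30), but not with DESeq2 (adjusted p = 0.0617). Vdr lay below Thra by a log2 ratio of -2.12 ± 0.09 (limma adjusted p = 1.91e-04) and below Nr3c1 by -4.10 ± 0.14 (limma adjusted p = 2.74e-05), each in 3 of 3 libraries. Against Rara, the alpha retinoic acid receptor gene, the log2 ratio of Vdr was 4.34 ± 0.49 (limma adjusted p = 7.77e-05), which rests on the 4 rows of Rara.

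The retinoic acid receptor genes Rarb and Rarg overlapped in level. Rarb had 2.40, 1.62 and 2.74 RPKM (2.26 ± 0.577) and Rarg had 2.57, 1.97 and 2.15 RPKM (2.23 ± 0.306). The log2 ratio of Rarb over Rarg was -0.01 ± 0.31 and did not pass the threshold (limma adjusted p = 0.975), with a counting interval of 0.932 to 1.14 for the pooled ratio. When the 2 rows of Rarg were averaged instead of summed, Rarb exceeded Rarg by 0.93 on the log2 scale (limma adjusted p = 0.00267). Both were above 1 RPKM with edgeR (adjusted p = 5.93e-11 for Rarb and 1.86e-10 for Rarg) and not with DESeq2 (adjusted p = 0.316 and 0.325). Exons of the genes Top2b and Gm48162 on the other strand together cover 59.6% of the exon bases of Rarb. Top2b stood at 23.5 ± 2.001 RPKM, and Gm48162 had no measured level. The kit kept strand, but whether the counting used it is not given in the sources used here, so their part in the level of Rarb cannot be told apart. Rara had 0.0182, 0.129 and 0.0424 RPKM over 4 rows and was unresolved (edgeR adjusted p = 0.106), and lay below Rarg by a log2 ratio of -3.89 ± 0.66 (limma adjusted p = 1.91e-04).

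Genes that make and carry retinoic acid included several well above the threshold. Of 16 retinoid-handling genes, 9 were above 1 RPKM, 2 below, 4 unresolved and 1 at 0. The share above was 60% of the 15 tested, where 43.2% of all genes tested were. Crabp2, which carries retinoic acid to the nucleus, had 342, 323 and 327 RPKM (330.4 ± 9.96). Fabp5, which can carry retinoic acid as well as fatty acids, had 135, 96.5 and 127 RPKM (120 ± 20.4). Rdh10 and Aldh1a2, the enzymes of the first and second oxidation steps from retinol to retinoic acid, stood at 42.8 ± 3.35 and 17.4 ± 2.05 RPKM.

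Among 13 listed genes of receptors that pair with RXR, Thra held the largest share of RNA. The 13 are Vdr, the retinoic acid and thyroid hormone receptor genes and the 7 lipid-sensing genes. Receptors grouped as orphans were not counted as partners. Pparg, whose receptor also pairs with RXR, is not in the list of 41 and was not counted. Of the summed RPKM of these 13 genes, Thra made up 55.3%, 61.0% and 50.9% in replicates 1, 2 and 3 (55.8 ± 5.08%). Vdr made up 12.5 ± 1.08%, Rarb 9.14 ± 2.48%, Rarg 9.002 ± 1.21%, Nr1h2 5.88 ± 1.88% and Ppard 5.70 ± 4.13%. The summed level of the RXR genes was 34.1, 32.1 and 29.2 RPKM, against 25.0, 25.1 and 24.2 RPKM for all 13 partner genes, a ratio of 1.28 ± 0.0770. That ratio rests on median transcript lengths. With the longest transcripts Rxra fell to 13.1 and Rxrb to 6.85 RPKM, while Thra stood at 13.2 and Vdr at 3.09. Whether RXR RNA exceeds that of the partners is therefore not settled. These shares are of transcripts, several partners have rows near 0, and protein was not measured.

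**Figure D3:**
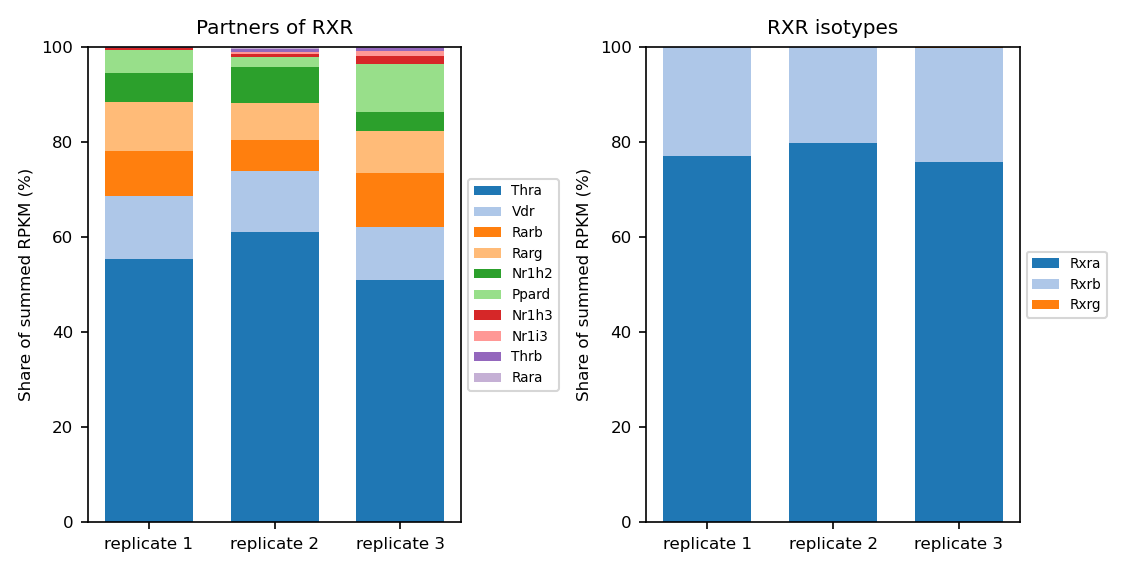
Share of the summed RPKM (y axis, percent) of 13 listed receptor genes that pair with RXR (left; Ppara, Nr1h4 and Nr1i2 are at 0) and of the RXR genes (right) in each library. Thra fills between 50.9% and 61.0% of the partner bars and Rxra between 75.9% and 79.9% of the RXR bars.

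Of the 7 lipid-sensing receptors, 4 were unresolved against 1 RPKM and 3 were listed at 0, and the calls of all 4 changed under some alternatives. Nr1h2, the beta liver X receptor gene, had 1.53, 1.91 and 0.942 RPKM (1.46 ± 0.489; edgeR adjusted p = 0.0712). It was above 1 RPKM with protein-coding scaling, with the shortest transcript and without replicate 3 (edgeR adjusted p = 0.00169, 0.0358 and 0.00699). Ppard, which encodes the fatty acid receptor PPAR delta, had 1.21, 0.520 and 2.46 RPKM (1.40 ± 0.985; edgeR adjusted p = 0.154). Replicate 3 of Ppard held 178 counts and replicate 2 held 31. Ppard was above 1 RPKM with protein-coding scaling, with the shortest transcript and without replicate 2 (edgeR adjusted p = 0.0139, 0.0416 and 0.0153). Its log2 level was -0.21 without replicate 3 and -0.55 with the longest transcript, neither past the threshold (edgeR adjusted p = 0.670 and 0.145). Nr1h3, the alpha liver X receptor gene, had 0.0963, 0.167 and 0.362 RPKM in 2 rows, of which 1 was at 0 throughout, and was below 1 RPKM with limma (adjusted p = 0.00307) but not with edgeR (adjusted p = 0.114). Nr1i3, the constitutive androstane receptor gene, had 0, 5 and 16 counts and was below 1 RPKM with limma (adjusted p = 6.78e-04) but not with edgeR (adjusted p = 0.204), and 66.1% of its exon bases lie opposite exons of Tomm40l, which stood at 3.87 ± 0.643 RPKM. Ppara, Nr1h4 and Nr1i2, receptors known from liver, were at 0 in all rows, with 3 counts over the libraries equal to 0.0101, 0.0128 and 0.00998 RPKM.

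Nr1h2 exceeded Nr1h3 by a log2 ratio of 2.38 ± 1.05 (limma adjusted p = 0.00455), in 3 of 3 libraries. Ppara was listed at 0 in both of its rows, so no fold is given for Ppard over it. Their log2 ratio with a pseudocount of 0.1 RPKM was 3.67 ± 1.02 (limma adjusted p = 8.06e-04), and it was 1.18 with a pseudocount of 1 RPKM.

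Of the known target genes of these lipid receptors, 70% (sterol) and 71.4% (PPAR) of those tested were above 1 RPKM, where 43.2% of all genes tested were. Only 1 sterol target and 0 PPAR targets have several rows, and 45.4% of all genes with 1 row were above. Of 10 sterol receptor targets, 7 were above, 1 below and 2 unresolved, with the desaturase genes Scd2 and Scd1 at 408 ± 30.6 and 95.9 ± 8.52 RPKM, the cholesterol exporter gene Abca1 at 29.2 ± 1.62 and the ubiquitin ligase gene Mylip at 12.9 ± 1.12. Of 14 PPAR targets, 10 were above, 1 below and 3 unresolved, with the lipid droplet gene Plin2 at 66.0 ± 5.09 RPKM, Pdk4 as given above, and the fatty acid oxidation gene Hadha at 32.5 ± 2.08 RPKM. These genes have other regulators, and whether a lipid receptor sets their level was not tested.

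The 20 orphan receptors, which bind no hormone or whose ligand is unsettled, fell into 5 above, 4 below and 11 unresolved. The share above was 25%, where 43.2% of all genes tested were above and 13.4% below. All 5 were among the 14 orphans with 1 row. Nr2c2, which encodes testicular receptor TR4, had 25.3, 22.3 and 24.7 RPKM (24.1 ± 1.60), a range that overlapped that of Rxra. Its relative Nr2c1, encoding TR2, had 11.2, 10.3 and 9.75 RPKM (10.4 ± 0.721), and lay below Nr2c2 by a log2 ratio of -1.21 ± 0.12 in 3 of 3 libraries (limma adjusted p = 0.00141). The level of Nr2c2 was 15.8 RPKM with its longest transcript and 51.0 with its shortest, and 43.5% of its exon bases lie opposite exons of Mrps25 (9.65 ± 0.253 RPKM). Esrra, the oestrogen-related receptor alpha gene tied to mitochondrial metabolism, had 12.1, 11.6 and 9.15 RPKM (10.95 ± 1.58). Nr2f6, a relative of the COUP transcription factors, had 9.16, 10.8 and 11.6 RPKM (10.5 ± 1.23). Esrra, Nr2f6 and Nr2c1 were each above 1 RPKM with adjusted p at or below 4.57e-89 (edgeR), overlapped each other in range and were unresolved against 10 RPKM (edgeR adjusted p = 0.244, 0.526 and 0.611). Exons of Ocel1 on the other strand (4.16 ± 0.727 RPKM) cover 41.2% of the exon bases of Nr2f6. Smaller overlaps of this kind were 8.33% for Thra, with the clock receptor gene Nr1d1 (3.09 ± 0.763 RPKM), 3.26% for Esrra, with Trmt112 (1.53 ± 0.970 RPKM), 2.51% for Nr3c2 and 0.729% for Rora, so 7 of the 13 receptors above 1 RPKM had none. Rora, a receptor with roles in the circadian clock, had 3.73, 4.28 and 3.50 RPKM (3.84 ± 0.401) and was the last orphan above 1 RPKM (edgeR adjusted p = 1.52e-49).

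The Nr4a genes, whose promoters are printed above, lay under 1 RPKM in every library after 24 h of PTH, and none was called below it by edgeR. Nr4a1 had 79, 52 and 32 counts, or 0.892, 0.554 and 0.281 RPKM, and was unresolved (edgeR adjusted p = 0.112). Nr4a2 had 9, 8 and 0 counts in 2 rows, and Nr4a3 had 3, 6 and 0 counts, both unresolved (edgeR adjusted p = 0.120 and 0.0832), although limma called both below (adjusted p = 9.4e-06 and 2.43e-07). The mean of Nr4a1, 0.576 RPKM, stood beside a median of 0.497 RPKM over all genes with a length. Over genes with 1 row, as Nr4a1 has, the median was 0.694 RPKM. Nr4a1 exceeded Nr4a3 by a log2 ratio of 2.46 ± 0.60 (limma adjusted p = 8.04e-04), and the ratio of length-scaled counts was 41.2 with an exact 95% interval of 21.2 to 91.7. Earlier times were not sampled in these libraries, and how these values compare with cells without PTH was not measured.

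Of the other orphans, Esrrg, an oestrogen-related receptor gene of oxidative tissues, had 0.488, 0.436 and 0.518 RPKM and was below 1 RPKM (edgeR adjusted p = 0.00321), a call lost with DESeq2 alone. Hnf4a, a liver and gut receptor gene, had 0.202, 0.0923 and 0.0761 RPKM (edgeR adjusted p = 0.00915, below). Nr2f2, the COUP-TFII gene, had 3, 36 and 15 counts in 2 rows (edgeR adjusted p = 0.0370, below), so that replicate 2 held most of them. Rorb, a relative of Rora expressed mainly in the nervous system, had 17, 10 and 0 counts in 2 rows (edgeR adjusted p = 0.0301, below). None of the 6 calls below 1 RPKM held under every alternative. Nr2f6 exceeded Nr2f2 by a log2 ratio of 5.54 ± 0.77 (limma adjusted p = 8.85e-05) and Rora exceeded Rorb by 4.96 ± 0.29 (limma adjusted p = 2.74e-05), both against genes with 2 rows. Nr2f1, the COUP-TFI gene, had 0, 6 and 0 counts and lay below Nr2f2 by -0.88 ± 0.44 (limma adjusted p = 0.0163), a difference between a few counts. The remaining low orphans, all unresolved, ranged down from 26 counts in all for Nr0b1, the DAX1 gene of adrenal and gonad, and 18 for Nr2e1, a neural stem cell receptor gene, to 17 for Nr6a1, the germ cell nuclear factor gene, 14 for Nr5a1, the steroidogenic factor gene, 6 each for Nr0b2, the small heterodimer partner gene, and Esrrb, a pluripotency factor gene, and 3 for Nr5a2, the liver receptor homologue gene.

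Between oestrogen-related and oestrogen receptors, Esrra exceeded Esr1 by a log2 ratio of 0.83 ± 0.30, 1.80-fold between means and in 3 of 3 libraries (limma adjusted p = 0.0111). That call was lost with the shortest transcripts (0.40, limma adjusted p = 0.122), without replicate 1 (0.75, 0.0935) and without replicate 2 (0.74, 0.0869). In all, 15 of the 16 receptor pairs passed the threshold, 9 of the 16 involve a gene with several rows, and Rarb over Rarg was the pair that did not pass.

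**Figure D4:**
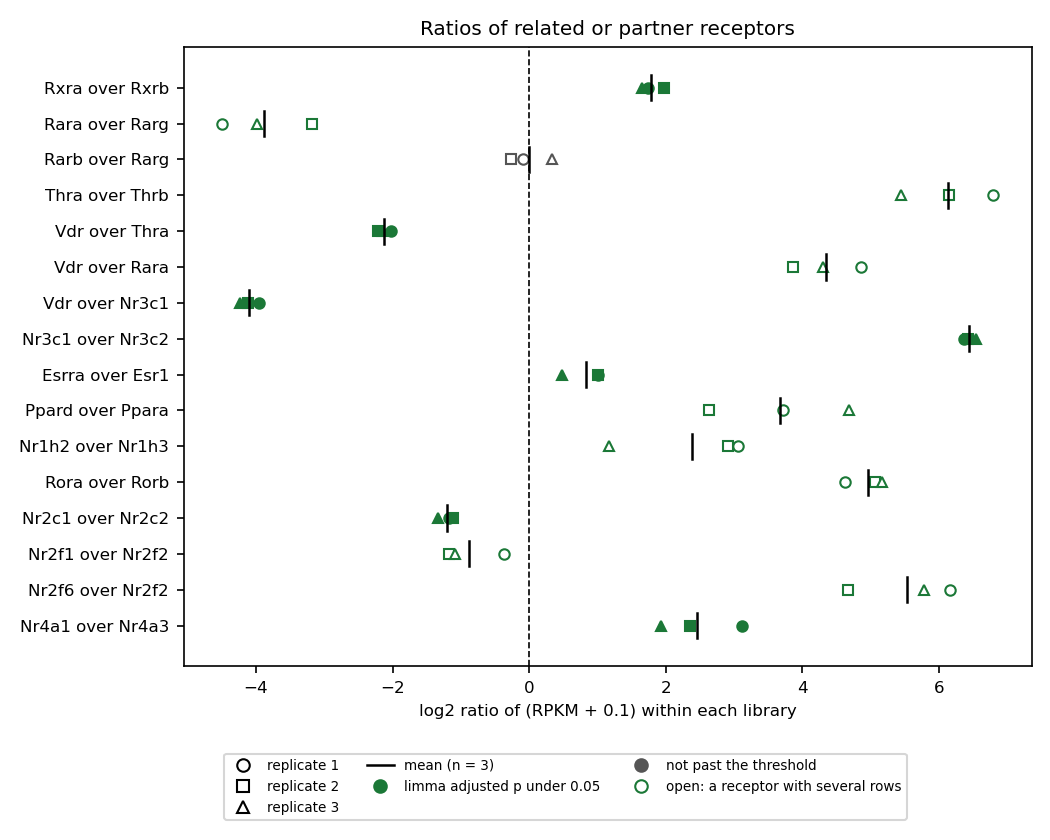
Log2 ratio of RPKM + 0.1 between the receptors of 16 pairs (x axis) in each library (1 symbol per library; bar, mean of 3). The 3 libraries of Nr3c1 over Nr3c2 lie close to 6.45, and those of Rarb over Rarg lie on both sides of 0.

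Across the whole set, the order of levels at median transcript lengths ran from Nr3c1 through Rxra and Nr2c2, then Thra, then Esrra, Nr2f6 and Nr2c1. Rxrb and Esr1 came next, then Rora, Vdr, Rarb and Rarg. Neighbours overlapped between Rxra and Nr2c2, among Esrra, Nr2f6 and Nr2c1, between Rxrb and Esr1, between Vdr and Rarb, and between Rarb and Rarg. Nr3c1 made up 30.3 ± 1.21% of the summed receptor RPKM of 183, 184 and 174, and the first 5 genes together 71.0 ± 1.36%. Of this sum over the 41 listed genes, steroid receptors made up 34.5 ± 1.40% and retinoid, thyroid and vitamin D receptors 29.6 ± 1.19%. The listed lipid-sensing receptors made up 1.78 ± 0.464% and orphan receptors 34.2 ± 0.741%. These shares do not rank the families, because symbols with several rows were often near 0. Such symbols were 1 of 5 steroid and 4 of 7 lipid-sensing receptors. They were 4 of 9 retinoid, thyroid and vitamin D receptors and 6 of 20 orphans. Levels move with the transcript chosen: Nr3c1 was at 48.0 RPKM with its longest and 129.7 with its shortest transcript, and Rxra at 13.1 and 32.9 RPKM. The order moves too, although Nr3c1 stayed first. With the longest transcripts Rxra lay under Nr2c2 (15.8 RPKM) and Thra (13.2). With the shortest, Nr2c2 (51.0) passed Rxra, and Rora (9.98) passed Rxrb (7.88) and Esr1 (8.22). The shares of the sum were computed with median lengths only. The 13 receptors above 1 RPKM varied between libraries by a median SD of 0.14 on the log2 scale, against 0.16 for all 9071 genes above 1 RPKM, least for Nr3c1 (0.07) and most for Rarb (0.38).

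Low receptors followed the libraries. Of the 41 receptors, 26 were above 0 in every library, and 11 were at 0 in 1 or 2 of them. Among 14 receptors with 5 to 60 counts in all, 4 were at 0 in replicate 1, 0 in replicate 2 and 7 in replicate 3, although replicate 3 was the deepest. Over the 7089 symbols of the files with such totals, 24.4%, 15.6% and 38.6% were at 0 in replicates 1, 2 and 3, so the receptors' zeros fell where those of other low genes did.

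Coregulators, through which ligand-bound and unbound receptors change transcription, were mostly above the threshold. Of 30 coregulator genes, 22 were above 1 RPKM (78.6% of the 28 tested, where 43.2% of all genes were), 6 were unresolved, 2 were at 0 and 0 were below. Their median level was 3.56 RPKM. Nsd1, a histone methyltransferase that binds receptors, came first at 323 ± 17.4 RPKM, a value that rests on a median transcript of 1149 bases, and it was 29.0 RPKM with its longest transcript of 12784 bases. Tbl1xr1, a subunit of the NCoR corepressor complex, had 68.3 ± 6.44 RPKM. The histone demethylase gene Kdm1a had 25.2 ± 1.89 RPKM and the arginine methyltransferase gene Prmt1 had 20.2 ± 0.573. All but 2 of the 8 coregulators that were not above 1 RPKM have several rows. Gps2 and Ppargc1b, the other two, had 1.09 ± 0.524 and 0.0477 ± 0.0720 RPKM and were named after their values were seen.

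**Figure D5:**
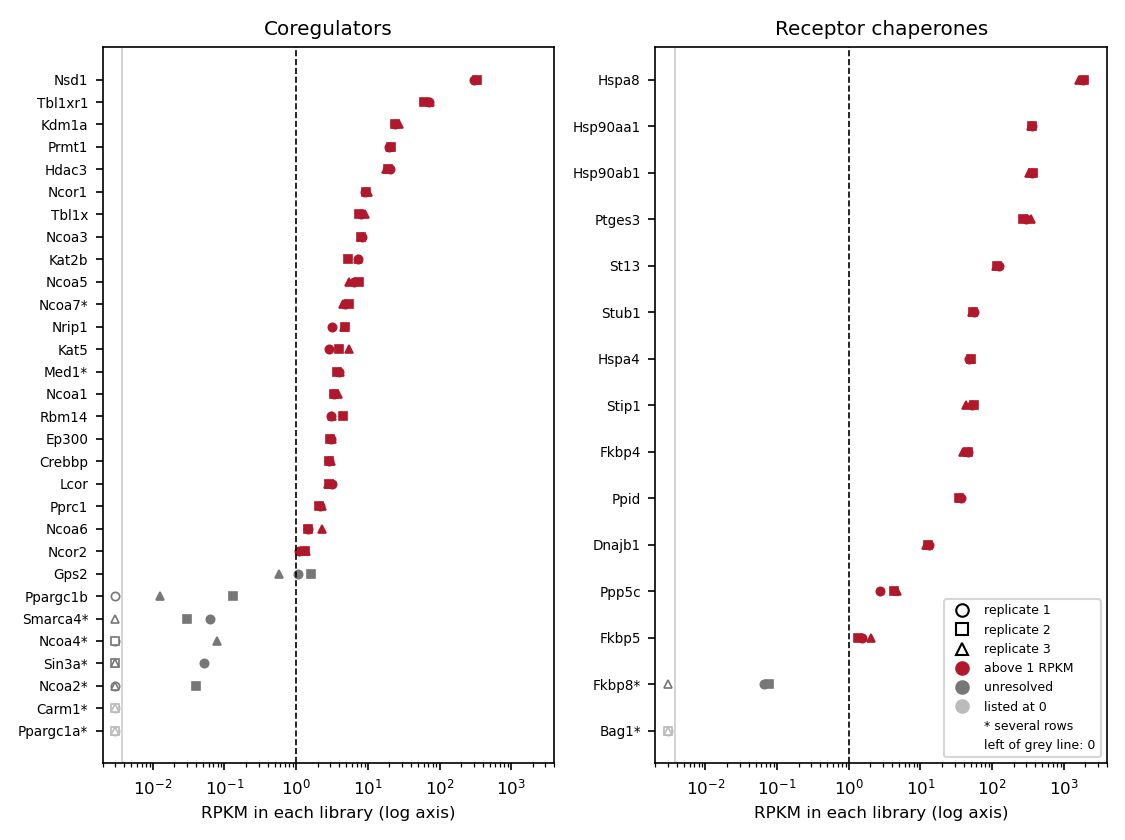
Level in each library (x axis, RPKM, log scale) of 30 coregulator genes (left) and 15 receptor chaperone genes (right), with a dashed line at 1 RPKM. Of the coregulators 22 and of the chaperones 13 lie above the line by test, and the starred genes at the bottom of each panel have several rows.

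The identity of the cells was checked on marker lists. Of 8 osteoblast lineage markers 7 were above 1 RPKM, with summed levels from 11708 to 13152 RPKM. Of 8 osteocyte markers 3 were above (Pdpn, Fbln7 and Phex), or 37.5% where 43.2% of all genes were, with sums from 152 to 207 RPKM. Ptprz1 was below 1 RPKM (0.570 ± 0.311; edgeR adjusted p = 0.0078), while Sost stood at 0.00917 ± 0.0159 RPKM and Dmp1 at 0.652 ± 0.547 RPKM, and Fgf23 and Mepe were unresolved. Of the listed markers of 7 other cell types, only Adipoq (1.88 ± 1.16 RPKM, adipocyte) and Kdr (2.62 ± 0.185 RPKM, endothelial) were above 1 RPKM. The summed levels of each of these lists stayed between 0.185 and 4.22 RPKM. Plin1, Pecam1 and Calcr were at 0, and each has several rows. Of the 5 adipocyte markers 1 was above and 1 below 1 RPKM, with sums of 4.22, 2.20 and 4.09 RPKM in replicates 1, 2 and 3, lowest in the library where Ppard was lowest. Their members did not share 1 order: Adipoq was lowest in replicate 2, whereas Cfd (1.43, 0.927 and 0.838 RPKM) and Cidec (0.434, 0.173 and 0 RPKM) were lowest in replicate 3. Lep (0.296, 0.452 and 0.312 RPKM) was highest in replicate 2. Fabp4, counted with the PPAR targets and not in the adipocyte list, had 7.04, 8.89 and 13.2 RPKM and was picked after its values were seen. The part of adipocytes in the level of Ppard was not tested.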

How the data were processed

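RNA from 3 PTH-treated IDG-SW3 libraries was depleted of ribosomal RNA and made into strand-preserving libraries, per the labels' protocols. TopHat and build mm9 are named in the submitters' processing notes, without versions; the sources used here do not give the counting tool, annotation or use of strand. The values are counts: the deposited files are named for RPKM but hold whole numbers with different totals per library, were taken as unnormalized read counts of each transcript row, and every RPKM here rests on that reading. Another whole-number quantity was not tested.

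Rows were summed per symbol. RPKM was computed with the median length of basic GENCODE M21 transcripts (GRCm38; 20840 symbols matched directly, 2177 by synonym, and 2393 left out). Levels were tested two-sided against 1 and 10 RPKM with edgeR 4.0.16 (R 4.3.3; quasi-likelihood, robust, trended dispersion, expected count as offset) over 20983 genes above 0 in at least 1 library, with Benjamini-Hochberg adjustment at 0.05. The 16 pairs were tested with limma 3.58.1 on within-library log2 ratios with a pseudocount of 0.1 RPKM, which understates ratios of low genes. An exact sign-flip test of 3 libraries cannot go below p = 0.25. Alternatives included DESeq2 1.42.0. Only the edgeR test against 1 RPKM was checked on simulated data, with the same dispersion for every gene and levels near 1 RPKM. That check does not cover the limma and DESeq2 tests, the threshold of 10 RPKM or the lowest receptors.

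Named genes were all receptors, up to 4 members with the highest mean RPKM of each of 8 pathway lists, and the markers; others are marked as picked later, and some genes the rule names are not reported here. The members and lists were chosen with earlier results of these data known. Intervals (exact, 95%) and the limit of 3 counts for a gene at 0 cover only counting error, because PCR copies cannot be recognised without molecular identifiers. The authors' build differs from that of the promoters and lengths, so only RefSeq positions are printed.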

Additional observations from a re-analysis of the deposited data

How the results depend on the processing

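The count of 13 receptors above 1 RPKM lay between 10 and 15 under all alternatives run, and 10 of the 13 calls held under each of them; Vdr, Rarb and Rarg were lost with DESeq2, and Rarg also with rows averaged. The count of 6 below 1 RPKM was 1 with DESeq2 (Nr5a2, with all 6 lost), 20 and 21 with limma at pseudocounts of 0.1 and 1 RPKM, 10 with no filter, 2 with the shortest transcript, 3 over symbols with 1 row only, and 1 to 6 leaving out 1 library at a time; the cause was not tested. The count of 4 above 10 RPKM became 7 when scaled to protein-coding counts, 3 with DESeq2 and 5 without replicate 3. The coregulators above 1 RPKM numbered 16 to 22. TMM library sizes changed no call. The size of a small p-value depends on the genes pooled. For Nr3c1 against 1 RPKM, the edgeR adjusted p was 1.32e-187, and 1.99e-21 over genes with at least 10 counts in 2 libraries. The log2 level of Nr3c1 was 5.77 in both.

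Against 1 RPKM, Ppard (log2 0.49) was at -0.55 with the longest transcript and at -0.21 to 0.88 without 1 library, and Pgr (-0.02) was at 0.31 with protein-coding scaling and at -0.25 to 0.28 without 1 library, and at -1.19 and called below with the longest transcript. Nr1h2 and Ppard became calls above 1 RPKM with protein-coding scaling, the shortest transcript and without replicate 3 (Nr1h2) or 2 (Ppard). Of the unresolved receptors, limma called 14 and 15 at pseudocounts of 0.1 and 1 RPKM. Rarb over Rarg (-0.01) turned to 0.000465 with a pseudocount of 1, 0.0205 with the shortest transcripts and 0.93 with rows averaged, and ranged from -0.18 to 0.12 without 1 library. Esrra over Esr1 was 0.40 with the shortest transcripts, and 0.74 to 1.005 without 1 library. Nr2f1 over Nr2f2 was -0.16 with a pseudocount of 1 (limma adjusted p = 0.284), -2.98 with edgeR (adjusted p = 0.0918) and -1.13 to -0.73 without 1 library. edgeR gave no finite ratio of Ppard over Ppara. No paired analysis was possible because replicate numbers could pair libraries only across groups, and there is 1 group; receptors were compared within libraries.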
